A study of Mus musculus with 10 samples.

Results

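The regulators of the NRF2 and KEAP1 pathway were taken as 10 named genes of the 18869 gene identifiers in the table, namely Nfe2l2, Keap1, Nfe2l1, Cul3, Rbx1, Mafg, Mafk, Maff, Bach1 and Sqstm1. Each matched 1 identifier, and 9 of the 10 passed a filter on low values that left 8075 genes. Their transcripts were compared in livers of C57BL/6 mice aged 6 weeks, between 5 wild-type (WT) libraries and 5 Nrf2Act-hep libraries, described by the labels as mice with NRF2 activated in the liver only. The allele, promoter or Cre line behind the activation is not stated in the labels, and no pooling of animals is mentioned. All mice were on regular chow and were fasted for 15 h before collection. A letter in the sample titles, M or F, divides the WT libraries into 2 and 3 and the Nrf2Act-hep libraries into 3 and 2. RNA was sequenced as QuantSeq 3′ tags, which give about 1 tag per polyadenylated transcript whatever its length, so levels of different genes are set side by side below without a length correction.

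NRF2, the product of Nfe2l2, is a transcription factor of the cap'n'collar (CNC) family that switches on antioxidant and detoxification genes. In unstressed cells KEAP1 holds NRF2 in a complex with the scaffold CUL3 and the RING protein RBX1, which tag it with ubiquitin for rapid destruction, so the factor is controlled mainly at the protein level. NRF2 that escapes binds antioxidant response elements as a pair with a small MAF protein, MAFG, MAFK or MAFF, in competition with the repressor BACH1. The autophagy receptor p62, encoded by Sqstm1, can bind KEAP1 and remove it from this complex, and NRF1, encoded by Nfe2l1, is a CNC relative best known for control of proteasome genes.

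Values are CPM, a gene's reads relative to all reads of its library, after TMM scaling, which corrects for differences in library composition. WT libraries held 1267745 to 2287727 reads and Nrf2Act-hep libraries 2167528 to 2806670, so 3 reads stood for 1.07 to 2.37 CPM before TMM scaling. Fold changes are differences of log2(CPM + 1) between Nrf2Act-hep and WT, with the letter as a covariate, and a gene was called at an adjusted p under 0.05 in limma over all 8075 genes. The median fold change of all tested genes was 0.01 on this scale and 0.13 on the deposited scale without TMM. The labels do not say that each library came from a separate animal, so the spread behind each p-value is that between libraries and may be technical. In liver tissue, fewer cells of a type and less RNA per cell cannot be told apart.

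A shared sequence feature was looked for in the promoters, because the antioxidant response element is the site that NRF2 and small MAF pairs recognise and the genotype concerns NRF2. RefSeq promoter windows on GRCm38.p6, from 250 bases before to 50 bases after each start site, were found for 10 of the 10 genes (16 windows). The core TGACNNNGC, searched on both strands, lay in at least 1 window of 4 of the 10 genes, Nfe2l2, Mafg, Mafk and Maff. In the whole RefSeq table it lay in 14.0% of genes and 12.4% of windows. The related TGAGTCA, searched on both strands, was in 0 of the 10 genes and in 5.95% of all genes. The 2 motifs can overlap where the core continues as TGACTCA. The windows with a core follow, 5′ to 3′, before the RefSeq start site and with the core in capitals. For Mafg and Mafk the core reads on the opposite strand, so the capitals show its reverse complement. The Mafg stretch is shortened to 227 bases, and the stretches of Mafg and Mafk end a short way inside their gene models. The Mafk core itself lies inside the gene model, though before the RefSeq start site. A match is a description of these letters and does not show binding.

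Nfe2l2 at chr2:75704664-75704913, minus strand: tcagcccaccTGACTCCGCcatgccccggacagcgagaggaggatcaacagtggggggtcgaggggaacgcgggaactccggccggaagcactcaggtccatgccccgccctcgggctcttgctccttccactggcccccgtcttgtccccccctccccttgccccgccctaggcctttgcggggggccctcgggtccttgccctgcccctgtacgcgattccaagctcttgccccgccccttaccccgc

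Mafg at chr11:120633571-120633797, minus strand: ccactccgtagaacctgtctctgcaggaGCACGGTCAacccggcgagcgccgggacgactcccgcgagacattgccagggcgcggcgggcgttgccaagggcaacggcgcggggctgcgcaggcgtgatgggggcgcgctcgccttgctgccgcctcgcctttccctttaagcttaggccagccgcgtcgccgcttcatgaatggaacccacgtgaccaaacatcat

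Mafk at chr5:139791286-139791535, plus strand: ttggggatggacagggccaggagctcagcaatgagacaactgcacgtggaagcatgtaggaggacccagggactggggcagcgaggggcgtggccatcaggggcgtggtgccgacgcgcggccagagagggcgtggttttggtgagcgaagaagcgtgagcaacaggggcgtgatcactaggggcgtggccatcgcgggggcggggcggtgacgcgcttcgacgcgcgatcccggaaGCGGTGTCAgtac

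Maff at chr15:79346371-79346620, plus strand: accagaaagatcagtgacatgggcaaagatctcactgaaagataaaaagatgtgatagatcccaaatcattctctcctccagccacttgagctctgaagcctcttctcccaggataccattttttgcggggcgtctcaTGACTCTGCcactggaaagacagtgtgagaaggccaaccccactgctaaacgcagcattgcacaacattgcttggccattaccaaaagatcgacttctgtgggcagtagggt

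The first core base lay at -240 from the start site in Nfe2l2, -222 in Mafg, -13 in Mafk and -112 in the outermost of the 3 windows of Maff. The windows of Keap1, Cul3, Rbx1, Nfe2l1, Bach1 and Sqstm1 held no match to these letters.

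The transcripts of the regulators were compared between the genotypes, and a gene that was not called may still differ. Of the 9 tested genes 1 was lower and 0 were higher, where 1.86% of all tested genes were called lower and 2.79% higher (4.64% in either direction). The gene called lower was Nfe2l2 itself. The median fold change of the 9 was 0.14, with 6 above 0 and 3 below. At an unadjusted p under 0.05, 3 of the 9 passed (Nfe2l2, Bach1 and Sqstm1), where 16.2% of all tested genes did. On the deposited scale 2 of the 9 were higher and 0 lower, against 4.76% and 0.991% of all tested genes. By edgeR and by DESeq2 1 of the 9 was lower, Nfe2l2, against 1.94% and 2.02%. For 0 of the 9 were the library values of the genotypes free of overlap, against 5.14% of all tested genes.

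**Figure D1:**
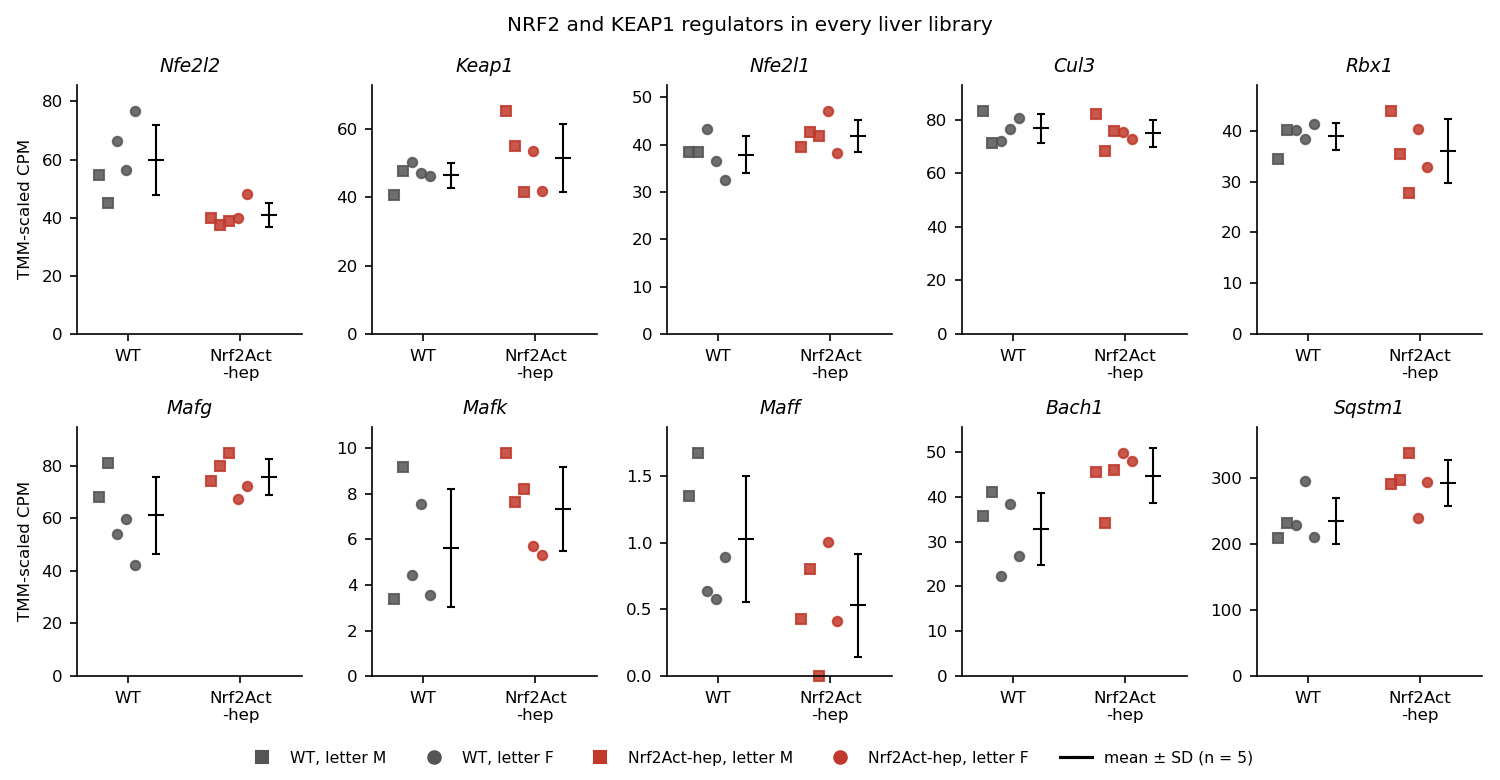
TMM-scaled CPM (vertical axis, from 0, with its own range in each panel) of the 10 regulators in each of the 10 liver libraries, WT in grey and Nrf2Act-hep in red, squares for letter M and circles for letter F, with black bars for mean ± SD over 5 libraries. The 5 Nrf2Act-hep values of Nfe2l2 sit between 37.4 and 48.0 CPM, at or under the lower end of the WT values of 45.2 to 76.6 CPM, and in every other panel the genotypes overlap too.

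Nfe2l2 (ENSMUSG00000015839, GRCm38 chromosome 2, 75675513 to 75704641, minus strand) encodes the NRF2 protein. In WT replicates 1 to 5 it stood at 54.7, 45.2, 66.2, 56.3 and 76.6 CPM, and in Nrf2Act-hep replicates 6 to 10 at 40.0, 37.4, 38.7, 40.0 and 48.0 CPM. Only Nrf2Act-hep replicate 10 reached into the WT range, above WT replicate 2, and the other 4 were below every WT library. Each genotype held 508 Nfe2l2 reads in all, although the Nrf2Act-hep libraries were deeper. The WT mean was 59.8 ± 12.0 CPM and the Nrf2Act-hep mean 40.8 ± 4.16 CPM (SD, n = 5 each). Nfe2l2 fell by 0.47 on the log2 scale (95% interval -0.74 to -0.19; adjusted p = 0.0436 in limma). The WT libraries varied with a coefficient of variation of 20.0%, where counting alone gives about 10.6%, and the Nrf2Act-hep libraries with 10.2%, where counting gives about 10.01%.

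The call of Nfe2l2 stood close to the threshold. It held by edgeR (adjusted p = 0.0326), DESeq2 (0.0485) and limma-voom (0.0339), and did not hold on the deposited scale (-0.34; adjusted p = 0.167 in limma), with no filter (0.165) or with a filter of 1 CPM in 5 libraries (0.0628). Leaving out any of WT replicates 1, 3 and 5 and Nrf2Act-hep replicates 7, 8, 9 and 10 also ended it, with limma adjusted p up to 0.145 and fold changes between -0.54 and -0.39 over the fits without 1 library. Fitted by letter, the difference was -0.35 in M and -0.58 in F on the log2 scale, neither called by limma (adjusted p = 0.385 and 0.245). The labels do not say which locus was altered, and a 3′ tag outside the altered part checks nothing, so the level of Nfe2l2 or Keap1 is no check of the genotype.

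**Figure D2:**
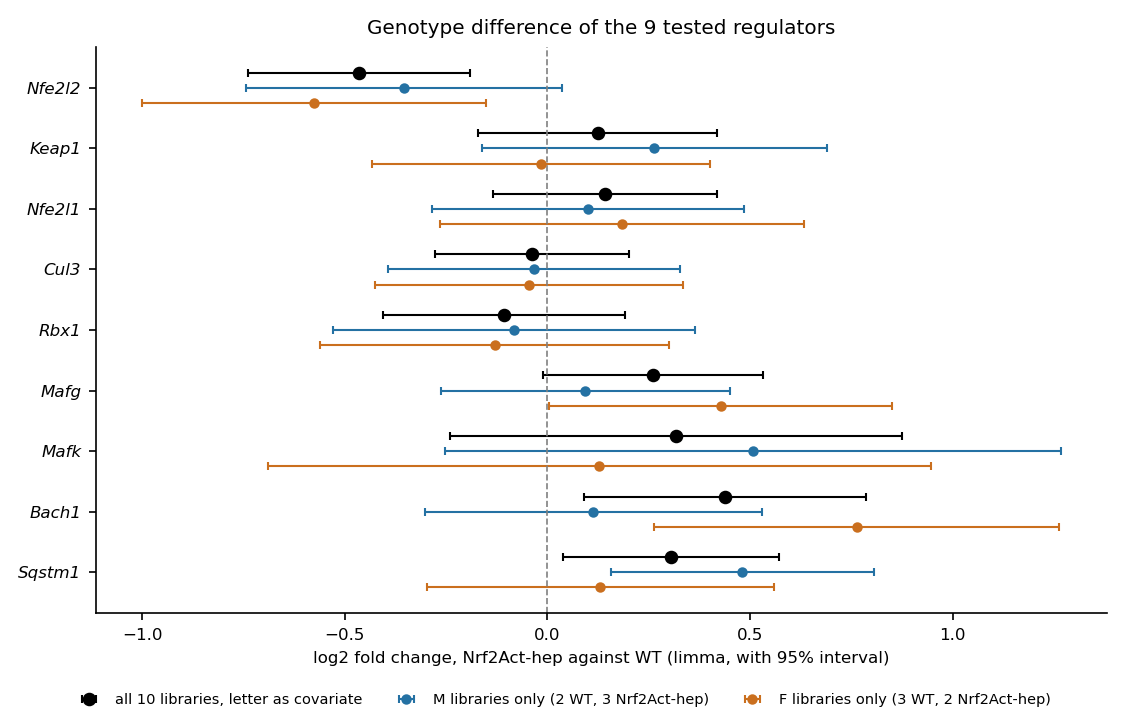
log2 fold change of Nrf2Act-hep against WT (horizontal axis) with its 95% interval from limma for the 9 tested regulators, in all 10 libraries (black), the M libraries (blue) and the F libraries (orange), with the dashed line at 0. In all libraries the interval lies below 0 for Nfe2l2 (-0.74 to -0.19) and above 0 for Bach1 and Sqstm1, whose adjusted p did not pass.

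The 3 genes of the ubiquitin ligase that destroys NRF2 gave no call. Keap1 (ENSMUSG00000003308, chromosome 9, 21229730 to 21239361, minus strand), the substrate adaptor and redox sensor, stood at 40.5, 47.7, 50.3, 47.0 and 46.3 CPM in the WT libraries and at 65.1, 55.1, 41.5, 53.5 and 41.9 CPM in Nrf2Act-hep replicates 6 to 10. Nrf2Act-hep replicates 6, 7 and 9 were above every WT library and replicates 8 and 10 were inside the WT range. The means were 46.4 ± 3.59 and 51.4 ± 9.95 CPM, a log2 fold change of 0.12 with a 95% interval of -0.17 to 0.42 (adjusted p = 0.733 in limma), and the sign turned to -0.02 in the F libraries alone.

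Cul3 (ENSMUSG00000004364, chromosome 1, 80264923 to 80340480, minus strand), the cullin scaffold, was the steadiest of the 10 genes. It stood at 83.1, 71.1, 72.0, 76.6 and 80.6 CPM in WT and at 82.2, 68.3, 75.6, 75.3 and 72.7 CPM in Nrf2Act-hep. The genotypes overlapped almost fully, with means of 76.7 ± 5.24 and 74.8 ± 5.03 CPM and coefficients of variation of 6.84% and 6.73%, under the 9.15% and 7.38% that counting alone gives. Its log2 fold change was -0.04 (95% interval -0.28 to 0.20; adjusted p = 0.913 in limma), and 0.09 on the deposited scale.

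Rbx1 (ENSMUSG00000022400, chromosome 15, 81466296 to 81476369, plus strand), the RING subunit that recruits the ubiquitin-conjugating enzyme, stood at 34.5, 40.2, 40.1, 38.3 and 41.4 CPM in WT and at 43.8, 35.4, 27.8, 40.3 and 32.8 CPM in Nrf2Act-hep. Nrf2Act-hep replicate 6 was above the WT range and replicates 8 and 10 below it. The log2 fold change was -0.11 (95% interval -0.41 to 0.19; adjusted p = 0.779 in limma) and 0.02 on the deposited scale. A processed pseudogene, Rbx1-ps, held 1 read in all.

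Nfe2l1 (ENSMUSG00000038615, chromosome 11, 96817414 to 96829968, minus strand) stood at 38.5, 38.5, 43.3, 36.6 and 32.5 CPM in WT and at 39.6, 42.6, 41.9, 47.1 and 38.2 CPM in Nrf2Act-hep. All 5 Nrf2Act-hep values were above the WT mean of 37.9 ± 3.89 CPM, and 1 was above every WT library. The Nrf2Act-hep mean was 41.9 ± 3.41 CPM, a log2 fold change of 0.14 with a 95% interval of -0.13 to 0.42 (adjusted p = 0.655 in limma).

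The 3 small MAF proteins carry a DNA-binding and dimerisation domain but no activation domain, and their transcripts differed widely in level. Mafg (ENSMUSG00000051510, chromosome 11, 120625117 to 120633600, minus strand) made up 90.3 ± 2.30% of the small Maf reads in WT and 90.6 ± 1.73% in Nrf2Act-hep. Mafk (ENSMUSG00000018143, chromosome 5, 139791513 to 139802653, plus strand) made up 8.18 ± 2.51% and 8.73 ± 1.80%, and Maff (ENSMUSG00000042622, chromosome 15, 79346621 to 79359076, plus strand) 1.5 ± 0.5% and 0.66 ± 0.51%. These shares do not depend on the scaling, and the ranges of the genotypes overlapped for each gene.

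In the WT libraries Mafg stood at 68.2, 81.2, 54.1, 59.8 and 42.3 CPM and in Nrf2Act-hep at 74.1, 80.0, 84.8, 67.2 and 72.2 CPM. Its 5 Nrf2Act-hep values were above the WT mean, and 1 was above every WT library. The means were 61.1 ± 14.6 and 75.7 ± 6.83 CPM (log2 difference 0.26, 95% interval -0.01 to 0.53; adjusted p = 0.333 in limma). The WT values were split by letter, at 68.2 and 81.2 CPM in the M libraries and 42.3 to 59.8 CPM in the F libraries. Fitted apart, the log2 fold change was 0.09 in M and 0.43 in F, with 95% intervals of -0.26 to 0.45 and 0.0044 to 0.85. Neither was called by limma (adjusted p = 0.854 and 0.460). On the deposited scale, with all 10 libraries, the log2 fold change of Mafg was 0.39 (adjusted p = 0.0895 in limma).

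An exon of Sirt7, on the same strand, overlaps the last 500 bases of the Mafg gene model, and the use of strand in the counting is not given in the sources used here. Sirt7 stood at 26.8 ± 2.21 CPM in the WT libraries and at 23.8 ± 5.41 CPM in the others (log2 fold change -0.24; adjusted p = 0.499 in limma). The part of Sirt7 reads in the Mafg values was not tested.

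Mafk had only 5 to 13 reads in a WT library and 13 to 23 in a Nrf2Act-hep library. It stood at 3.38, 9.21, 4.46, 7.55 and 3.56 CPM in WT and at 9.79, 7.64, 8.20, 5.72 and 5.34 CPM in Nrf2Act-hep, with 1 value above the WT range. The log2 fold change was 0.32 with a wide 95% interval of -0.24 to 0.88 (adjusted p = 0.617 in limma). The WT libraries varied with a coefficient of variation of 46.3%, where counting alone gives about 35.7%. An exon of Tmem184a, on the opposite strand, overlaps its last 500 bases and had 28 and 47 reads in all against 44 and 90 for Mafk.

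Maff, the small Maf known to respond to stress and inflammation, did not pass the filter on low values. It had 2, 2, 1, 1 and 2 reads in the WT libraries and 1, 2, 0, 3 and 1 in Nrf2Act-hep. The count of 0 in Nrf2Act-hep replicate 8 does not show absence, as 3 reads there stood for 1.38 CPM before TMM scaling. The means were 1.03 ± 0.47 and 0.53 ± 0.39 CPM, and an exact two-sided permutation test over the 5 libraries against 5 gave p = 0.11, where the smallest p possible is 0.0079. Permuted within the letters, the exact p = 0.12. Per unit of depth the ratio of reads, Nrf2Act-hep to WT, was 0.63, and the exact 95% interval, for counting error only, ran from 0.20 to 2.00.

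Bach1 (ENSMUSG00000025612, chromosome 16, 87698945 to 87733346, plus strand) encodes the haem-sensing repressor that occupies antioxidant response elements with small MAF proteins. It stood at 35.8, 41.0, 22.3, 38.3 and 26.7 CPM in WT and at 45.5, 34.2, 46.0, 49.8 and 48.0 CPM in Nrf2Act-hep. All 5 Nrf2Act-hep values were above the WT mean and 4 were above every WT library, with replicate 7 inside the WT range. The means were 32.8 ± 7.97 and 44.7 ± 6.12 CPM, a log2 fold change of 0.44 with a 95% interval of 0.09 to 0.79 that did not pass (adjusted p = 0.170 in limma). On the deposited scale the value was 0.57 and passed (adjusted p = 0.0480 in limma). Over the fits without 1 library the adjusted p ran from 0.10 to 0.379 by limma.

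The difference of Bach1 was uneven between the letters. In the M libraries the WT mean was 38.4 and the Nrf2Act-hep mean 41.9 CPM (log2 difference 0.11), and in the F libraries 29.1 and 48.9 CPM (0.76). The difference between these fold changes was 0.65, and its test did not pass (adjusted p = 0.699 in limma).

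Sqstm1 (ENSMUSG00000015837, chromosome 11, 50199366 to 50210827, minus strand), the gene of p62 and a known NRF2 target, was the most abundant of the 10 and the best measured, with 278 to 742 reads per library. It stood at 209.5, 232.7, 228.6, 295.5 and 211.1 CPM in WT and at 292.0, 297.5, 338.1, 239.7 and 294.3 CPM in Nrf2Act-hep. WT replicate 4 reached as high as most Nrf2Act-hep libraries, and Nrf2Act-hep replicates 7 and 8 were above every WT library. The means were 235.5 ± 35.1 and 292.3 ± 35.0 CPM, a log2 fold change of 0.31 with a 95% interval of 0.04 to 0.57 that did not pass (adjusted p = 0.226 in limma). On the deposited scale it was 0.44 and passed (adjusted p = 0.0407 in limma). Fitted apart, the log2 fold change was 0.48 in the M libraries (adjusted p = 0.112 in limma) and 0.13 in the F libraries (0.882).

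Exons of Mrnip, on the opposite strand, overlap the last 500 bases of Sqstm1. In the 2 genotypes Mrnip had 19 and 31 reads against 1930 and 3598 for Sqstm1, at 2.45 ± 1.11 and 2.49 ± 0.46 CPM.

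**Figure D3:**
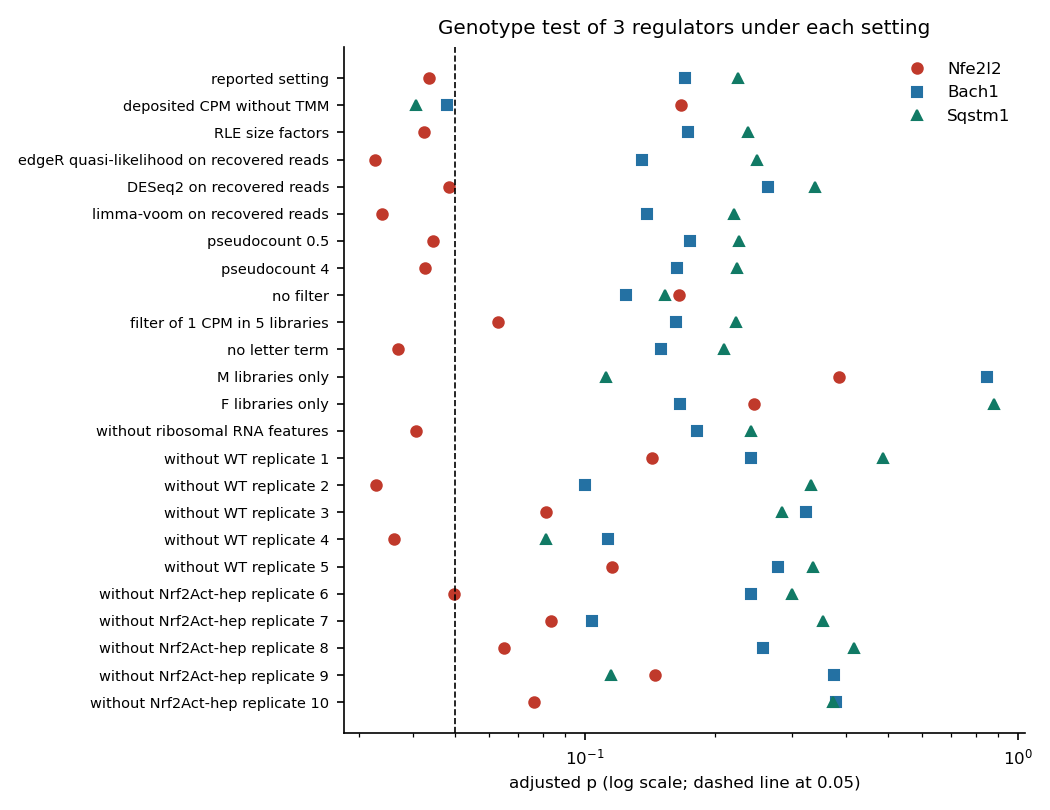
Adjusted p of the genotype test (horizontal axis, log scale, dashed line at 0.05) of Nfe2l2, Bach1 and Sqstm1 in the reported setting and under each of 23 others (vertical axis). Nfe2l2 passes in the reported setting (0.0436) and in 11 of the others, and Bach1 and Sqstm1 pass on the deposited scale without TMM (0.0480 and 0.0407) and in no other setting shown.

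Ratios of reads within a library do not depend on the scaling, and were used to set NRF2 beside its inhibitor, its rival and its relative. The ratio of Nfe2l2 to Keap1 reads was 1.35, 0.95, 1.32, 1.20 and 1.65 in WT and 0.61, 0.68, 0.93, 0.75 and 1.15 in Nrf2Act-hep, so 4 of 5 Nrf2Act-hep libraries were below every WT library. The means were 1.29 ± 0.26 and 0.82 ± 0.22.

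For Nfe2l2 against Bach1 the ratio was 1.53, 1.10, 2.97, 1.47 and 2.87 in WT and 0.88, 1.09, 0.84, 0.80 and 1.00 in Nrf2Act-hep. Here the genotypes did not overlap, though WT replicate 2 (1.10) and Nrf2Act-hep replicate 7 (1.09) nearly touched. Each of these values rests on 49 to 93 reads per gene. Neither Nfe2l2 nor Bach1 alone was free of overlap. How often the ratio of other pairs of genes is free of overlap was not counted. The means of the Nfe2l2 to Bach1 ratio were 1.99 ± 0.87 and 0.92 ± 0.12. Within the letters the WT and Nrf2Act-hep means were 1.32 and 0.94 in M and 2.44 and 0.90 in F, so the gap was wider in F, where WT replicates 3 and 5 held the highest ratios. For Nfe2l2 against Nfe2l1 the means were 1.6 ± 0.45 (1.17 to 2.36) and 0.98 ± 0.16 (0.85 to 1.26), with 4 of 5 Nrf2Act-hep libraries below every WT library. These ratios were not tested, and they share the Nfe2l2 reads, so they are not separate evidence.

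**Figure D4:**
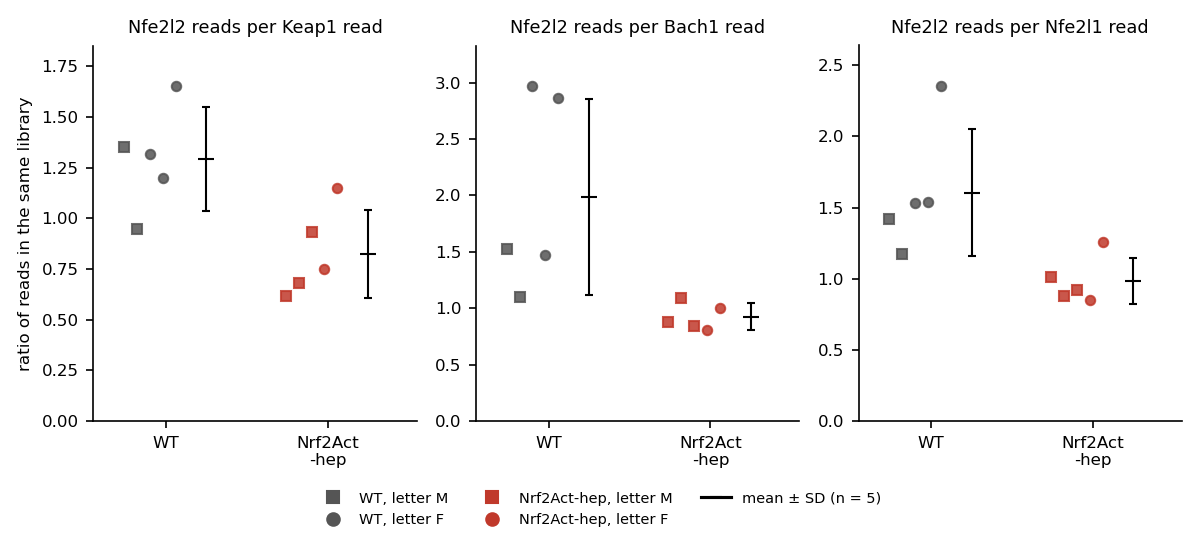
Reads of Nfe2l2 divided by reads of Keap1, Bach1 or Nfe2l1 in the same library (vertical axes from 0), WT in grey and Nrf2Act-hep in red, squares for letter M and circles for letter F, with mean ± SD over 5 libraries. The Nrf2Act-hep means are 0.82, 0.92 and 0.98, against 1.29, 1.99 and 1.6 in WT.

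Ordered by level in TMM-scaled CPM, Sqstm1 stood above all others in each genotype (235.5 and 292.3 CPM), and Mafk and Maff below all others, with no overlap of library values on either side. In WT the order between them was Cul3, Mafg, Nfe2l2, Keap1, Rbx1, Nfe2l1 and Bach1, from 76.7 to 32.8 CPM, and the library ranges of each of these neighbours overlapped. In Nrf2Act-hep it was Mafg, Cul3, Keap1, Bach1, Nfe2l1, Nfe2l2 and Rbx1, from 75.7 to 36.0 CPM, where only Cul3 and Keap1 had ranges that did not overlap. Nfe2l2 moved from rank 4 in WT to rank 7 in Nrf2Act-hep and Bach1 from rank 8 to rank 5, although the ranges of both overlapped those of their neighbours.

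Between the letters, at equal genotype, 0 of the 9 genes were called by limma, edgeR or DESeq2, where limma called 1.16% of all tested genes. At an unadjusted p under 0.05 there were 2, against 10.2% of all tested genes. Nfe2l2 was 0.29 higher in F (adjusted p = 0.462 in limma), and Mafg 0.35 lower, a log2 difference of -0.35 (adjusted p = 0.275 in limma). For the interaction of genotype and letter 0 of 9 were called by limma, edgeR or DESeq2, where limma called 0.0248% of all tested genes, and Bach1 was the 1 gene at an unadjusted p under 0.05 (7.13% of all tested genes).

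The wider machinery was then read from lists of related genes. Of 18 tested genes of neddylation and the COP9 signalosome, which switch cullin ligases on and off, 0 were higher and 0 lower by limma, with a median log2 fold change of 0.11. Nedd8, the modifier itself, stood at 101.4 ± 19.3 and 113.7 ± 28.9 CPM, and the COP9 gene Cops9 at 69.2 ± 15.1 and 74.4 ± 13.7 CPM. Of 17 genes of other ligases and kinases that act on NRF2, 0 were higher and 0 lower (median 0.06). The most abundant were Skp1a, a subunit of SCF ligases, at 127.0 ± 18.4 and 163.8 ± 18.3 CPM (log2 difference 0.38; adjusted p = 0.101 in limma), and the CUL4 adaptor Dcaf11, at 90.5 ± 9.98 and 87.5 ± 20.3 CPM. Skp1a passed on the deposited scale (adjusted p = 0.0128 in limma) and without Nrf2Act-hep replicate 10 (0.0379).

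Among 11 tested genes of proteins that bind KEAP1 or act beside it, 1 was higher and 0 lower, with a median of -0.01. The gene that rose was Prkaa2, the catalytic alpha-2 subunit of the energy sensor AMPK, a kinase and not a KEAP1 binder. It stood at 65.5, 62.8, 43.9, 47.0 and 50.8 CPM in WT and at 93.2, 111.8, 75.6, 77.0 and 94.0 CPM in Nrf2Act-hep, with every Nrf2Act-hep library above every WT library. The log2 fold change was 0.68 ± 0.13 (SE; adjusted p = 0.00241 in limma), and the call held without each single library (adjusted p up to 0.0209) but not in the M libraries alone (0.154). Cdkn1a, the gene of the cell cycle inhibitor p21, had the highest level of the list and varied widely, at 228.7 ± 123.7 and 102.1 ± 76.4 CPM (adjusted p = 0.343 in limma).

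Of the CNC and large MAF relatives, 5 of 7 listed genes were in the table used and 2 were tested. Maf, which encodes the large MAF protein c-MAF with its own activation domain, rose from 97.2 ± 19.5 to 145.6 ± 31.0 CPM (log2 difference 0.61 ± 0.16, SE; adjusted p = 0.0250 in limma). Its values were 100.7, 105.4, 70.0, 87.7 and 122.0 CPM in WT and 113.7, 141.5, 118.0, 178.5 and 176.5 CPM in Nrf2Act-hep, where replicates 6 and 8 were under WT replicate 5. The call was lost without WT replicate 4 or Nrf2Act-hep replicate 7, 9 or 10 (limma, adjusted p up to 0.107) and in the M libraries alone (0.475). Nfe2 and Nfe2l3, CNC relatives of other tissues, had 4 and 3 reads in all.

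Of 15 tested genes of autophagy receptors, other autophagy proteins and kinases around p62, 0 were higher and 0 lower (median 0.12). Tax1bp1 stood at 309.2 ± 9.82 and 295.0 ± 23.7 CPM and Gabarapl1 at 153.1 ± 19.9 and 178.9 ± 24.4 CPM. Of 11 genes that process NRF1 there were 0 and 0 (median -0.06), including the protease gene Ddi2 at 213.3 ± 34.0 and 178.3 ± 13.1 CPM and the unfoldase gene Vcp at 208.2 ± 36.4 and 210.6 ± 13.9 CPM. Among 16 NRF2 cofactors the counts were again 0 and 0 (median -0.02), with Atf4 at 162.8 ± 34.5 and 140.1 ± 46.6 CPM and the receptor Rxra at 118.5 ± 16.9 and 100.9 ± 9.59 CPM. At an unadjusted p under 0.05 the 5 lists without a call (neddylation, ligases and kinases, autophagy, NRF1 processing and cofactors) held 9 of 77 tested genes, where 16.2% of all tested genes passed.

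Many targets of the pathway were called. Of 30 tested NRF2 targets 22 were higher and 0 lower, with a median log2 fold change of 1.08. The list was drawn up with earlier results of these libraries known, so its count is not independent evidence of direction. By smallest p the leading genes were the carbonyl reductases Cbr3 and Cbr1 (2.36 ± 0.14, SE), the biliverdin reductase Blvrb (1.85 ± 0.12), the efflux pump Abcc4 (3.23 ± 0.23), the glutathione synthesis gene Gclc (1.83 ± 0.14) and the glutathione transferase Gsta2 (3.19 ± 0.24), as log2 fold changes with limma adjusted p of 2.81e-08 or less. Cbr3 had 1 read in the 5 WT libraries together and 176.2 ± 49.9 CPM in Nrf2Act-hep. Its fitted fold change therefore depends on the pseudocount and is not given. Abcc4, at 1.67 to 4.46 CPM in WT, passed the filter, as Cbr3 did, only through the Nrf2Act-hep libraries. The SE leaves out the pseudocount, which moved the log2 fold change of Abcc4 from 3.42 (pseudocount 0.5) to 2.50 (pseudocount 4). For Gsta2 these values were 3.31 and 2.69.

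Targets that BACH1 is known to repress were read beside the Bach1 level. Of 10 listed genes 3 were higher and 0 lower (median 0.35), namely Blvrb, the haem transporter gene Slc48a1 (1.35 ± 0.14, SE) and the ferritin gene Ftl1 (0.78 ± 0.14). This list is not separate from the others. Blvrb, Ftl1, Fth1, Hmox1 and Gclm are also in the NRF2 target list, and Mafg is a regulator. Ftl1 did not pass in the M libraries alone (adjusted p = 0.0905 in limma). Hmox1, the haem oxygenase and the best known BACH1 target, stood at 48.0, 16.7, 59.9, 36.0 and 63.3 CPM in WT and at 29.4, 33.4, 30.1, 26.9 and 39.0 CPM in Nrf2Act-hep. Its log2 fold change was -0.27 (adjusted p = 0.705 in limma), with WT replicate 2 the lowest of all 10 libraries. Without that library it was -0.64 and passed (adjusted p = 0.0455 in limma), and in the M libraries alone it was 0.11. Gclm, the modifier subunit of glutathione synthesis, stood at 229.5 ± 26.9 and 267.0 ± 33.8 CPM (adjusted p = 0.520 in limma).

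**Figure D5:**
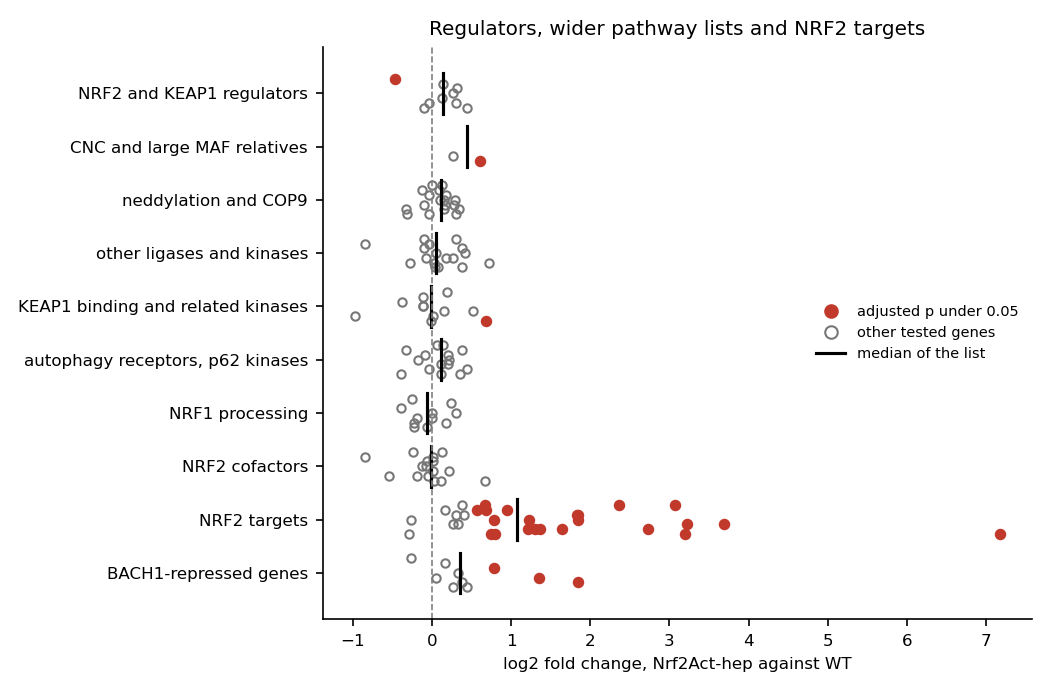
log2 fold change of Nrf2Act-hep against WT (horizontal axis) of every tested gene of the regulators and of 9 related lists (vertical axis), filled red where the limma adjusted p is under 0.05, with a black bar at each list's median. The regulators have 1 filled point, Nfe2l2 at -0.47, and the NRF2 targets have 22, all above 0. Some genes are in more than 1 list.

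The genes whose profile over the 10 libraries was closest to that of Nfe2l2 were Tab2, Tatdn2 and Sfxn2. Likeness was measured as the root mean square difference of centred log2(CPM + 1) values, which was 0.131, 0.132 and 0.139, against a median of 0.440 over all tested genes. Tab2, an adaptor of TAK1 kinase signalling, stood at 118.1 ± 22.0 and 80.5 ± 2.92 CPM (log2 difference -0.47; adjusted p = 0.0212 in limma). Sfxn2, a mitochondrial carrier of the sideroflexin family, stood at 72.6 ± 11.7 and 44.9 ± 2.73 CPM (-0.62; adjusted p = 0.00259 in limma), and Tatdn2 at 23.5 ± 5.08 and 15.3 ± 2.31 CPM (-0.51; adjusted p = 0.109 in limma). Tab2 did not pass on the deposited scale, with no filter or when any of 4 libraries was left out (WT replicates 1 and 5 and Nrf2Act-hep replicates 9 and 10) (limma, adjusted p of 0.0503 to 0.106 in these), and neither Tab2 nor Sfxn2 passed in either letter alone. The measure includes the genotype difference, so these genes were picked in part for it.

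Markers of the tissue were checked beside these values. The 10 hepatocyte markers were all tested and summed to 45405 to 52819 CPM in the WT libraries and to 33733 to 42185 CPM in the others. Most of that sum is Alb, at 29502 ± 2030 and 21586 ± 3748 CPM (adjusted p = 0.0804 in limma), and Apoa1, at 8164 ± 1305 and 4854 ± 632 CPM. The median log2 fold change of the 10 was -0.08, with 4 above 0 (Tat, Cps1, Cyp2e1 and Asgr1) and 6 below. Of the 10, 0 were higher and 2 lower, Apoa1 and Fabp1, and the hepatocyte genes given here were named after their values were seen. Apoa1 was called without each single library but not in the M libraries alone (adjusted p = 0.0849 in limma). Fabp1 was called in 2 of 10 fits without 1 library, and was not called on the deposited scale, by edgeR or limma-voom, with no filter, with the filter of 1 CPM or in the F libraries alone. Of 10 Kupffer cell markers 0 were higher and 1 lower, Timd4, also named after its value was seen and called in 3 of 10 fits without 1 library but not on the deposited scale, by DESeq2 or in either letter alone, and the sums of the 10 were 261 to 343 CPM for WT and 212 to 314 CPM for Nrf2Act-hep. Endothelial (10 tested), stellate (8), bile duct (2), lymphocyte (1), neutrophil (2) and erythroid (5) markers gave 0 calls in either direction by limma. Above and below 0 the fold changes numbered 1 and 9 for Kupffer markers, 5 and 5 for endothelial and 2 and 6 for stellate. For bile duct they numbered 0 and 2, for lymphocyte 1 and 0, for neutrophil 0 and 2 and for erythroid 0 and 5. Neutrophil markers summed to 14.2 to 103.3 CPM for WT and 11.9 to 17.1 CPM for Nrf2Act-hep. The part of cell composition in the regulator values was not tested.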

How the data were processed

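Liver RNA in 5 WT and 5 Nrf2Act-hep libraries was measured as QuantSeq 3′ forward tags, read as single reads of 75 bases, per the labels' protocols. The authors deposited 1 table of CPM (counts relative to each library's total) for 18869 gene identifiers, of which 18799 carried a symbol. GRCm38 is the build named by the submitters' processing notes. Aligner, counter, annotation and strandedness are not given in the sources used. In 100% of values the deposited CPM was a whole multiple of 1 read within 0.01 read, so reads per gene were recovered.

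Genes with 10 reads at the median depth (4.50 CPM) in at least 5 libraries and 15 reads in all were tested, 8075 genes. CPM was scaled by TMM (edgeR 4.0.16) and log2(CPM + 1) was fitted with limma 3.58.1 (variance trend, robust) on genotype and letter, with Benjamini-Hochberg adjustment over all genes tested and a threshold of 0.05. The genotype by letter interaction was fitted apart. Maff, under the filter, was tested by an exact permutation test over the libraries. The exact interval of its ratio of reads was taken with scipy 1.17.1. Alternatives were other scalings, tests (edgeR, DESeq2 1.42.0 and limma-voom on recovered reads), pseudocounts, filters, letters and single libraries left out. The fit was also run on simulated counts drawn without a set difference in library composition, and no result above rests on that run. No 2 libraries agreed within sampling noise (lowest chi-square per degree of freedom 3.66).

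The members and gene lists were chosen with earlier results of these data known. From each list up to 4 called genes with the smallest p were named, with the 2 most abundant where fewer than 2 were called. From the NRF2 targets up to 6 called genes were named, with Hmox1 and Gclm, and for Nfe2l2 the 3 nearest profiles. A gene that this rule names is not reported here. Gene positions are from GENCODE on GRCm38 and promoter sequences from RefSeq on GRCm38.p6. Counting intervals cover counting error only.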

Additional observations from a re-analysis of the deposited data

Results flagged for a closer look

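In 7 of the 86 groups of 5 libraries examined, 1 library stood apart from the other 4 by Dixon's criterion. For normally distributed values chance gives about 1 in 20. Among the regulators, Nfe2l2 was 48.0 CPM in Nrf2Act-hep replicate 10 (37.4 to 40.0 CPM in the others), Bach1 was 34.2 CPM in Nrf2Act-hep replicate 7 (45.5 to 49.8 CPM) and Sqstm1 was 295.5 CPM in WT replicate 4 (209.5 to 232.7 CPM). Without that library the log2 fold change was -0.49 for Nfe2l2 (limma, adjusted p = 0.0762), 0.52 for Bach1 (0.103) and 0.39 for Sqstm1 (0.0811).

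Among the related genes, Cdkn1a was 234.0 CPM and Gsta2 31.2 CPM in Nrf2Act-hep replicate 10, against 45.6 to 94.9 and 60.7 to 70.3 CPM in the others of that genotype. Gclm was 276.2 CPM in WT replicate 2, against 209.5 to 225.7 CPM. Cbr3 was 0.68 CPM in WT replicate 1, a single read, against 0 in the others, a pattern that this criterion always flags.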

How the results depend on the processing

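Over 23 alternatives each, 188 of 207 regulator values kept their direction and side of the threshold, 12 lost a call, 2 gained one and 5 changed sign. For other named genes the counts were 626, 43, 3 and 18. All 12 lost calls were of Nfe2l2, and the 2 gained were Bach1 and Sqstm1 on the deposited scale.

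Genotype calls numbered 375, 225 higher and 150 lower. On the deposited scale 384 were higher and 80 lower (60.0% and 82.8% of calls were higher in the reported and deposited scale), and of the regulators 2 were higher and 0 lower. With no filter, with 1 CPM in 5 libraries, in M alone and in F alone, 0 regulators were lower. In M alone 248 genes were called, 87 of them lower, and in F alone 131, with 83 higher and 48 lower. Without 1 library calls ran from 245 (without WT replicate 1) to 345, higher calls from 147 (without Nrf2Act-hep replicate 7) to 205, lower calls from 84 (without WT replicate 1) to 152, and regulators called lower from 0 to 1. Without Nrf2Act-hep replicate 7 there were 248 calls, and without replicate 10, 97 lower calls.

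The sign of some log2 fold changes turned. On the deposited scale Cul3 was 0.090, Rbx1 0.021, Dcaf11 0.027 and Tax1bp1 0.041, and with no filter Cul3 was 0.0051. In M alone Dcaf11 was 0.090, Tax1bp1 0.011, Vcp -0.14 and Hmox1 0.11, and in F alone Keap1 was -0.016 and Atf4 0.061. Vcp was also -0.0031 with RLE, -0.0044 in edgeR, -0.0073 in DESeq2 and -0.0063 without ribosomal RNA features. Without 1 library Cul3 reached 0.0028 (-0.082 to 0.0028), Dcaf11 0.023 (-0.21 to 0.023) and Vcp -0.059 (-0.059 to 0.097). The causes were not tested.

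No paired analysis was possible because the replicate numbers run from 1 to 10 without a repeat between genotypes. Reads per library ran from 85 to 224 for Cul3 and from 57 to 159 for Keap1, whose 95% intervals (-0.28 to 0.20 and -0.17 to 0.42) limit how small a difference these libraries can show.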

Other observations

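Bach2, the relative of Bach1 best known from lymphocytes, did not pass the filter on low values, with 81 reads in all. It stood at 6.08, 3.35, 3.82, 11.6 and 4.01 CPM in WT and at 4.26, 2.01, 2.28, 3.36 and 1.23 CPM in Nrf2Act-hep, with 3 Nrf2Act-hep libraries below every WT library. The means were 5.77 ± 3.43 and 2.63 ± 1.19 CPM (SD, n = 5 each), and the difference was not tested. Bach2 was chosen outside the rule by which genes were named from the lists.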
